A study of Arabidopsis thaliana with 5 samples.

Results

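The 10 genes of chlorophyll synthesis described here were measured in Arabidopsis cotyledons, the seed leaves: the enzyme genes HEMA1 (AT1G58290), GUN5 (AT5G13630), CHLI1 (AT4G18480), CHLD (AT1G08520), PORA (AT5G54190), PORB (AT4G27440), PORC (AT1G03630) and CAO (AT1G44446), the Mg-chelatase activator gene GUN4 (AT3G59400), and the transcription factor gene GLK1 (AT2G20570). They were chosen by name and found through the locus matched to the accession of each array probe, which gave 10 of 25433 genes and 19 of 43603 non-control probes. Each gene's probe with the highest mean signal stood for the gene, and all 10 were measured well above background on all 5 arrays. The groups were 2 wild-type samples (Col-0) and 3 samples of a mutant line titled ckg, all cotyledons at 7 days of age from seedlings kept in long days of 16 h light and 8 h dark. The labels number the samples as replicates and do not say whether they came from separate cultures, so p-values measure only the spread between these samples, which may be technical. A second label of the mutant samples reads "cgr mutant". From outside knowledge the line was taken to carry a lesion in AT5G50915, the gene CKG, which encodes a transcription factor of the bHLH class. The kind and position of the lesion and the number of independent lines are not given in the sources used here. Every value is the brightness of a spot on a 1-colour Agilent array that carried Cy3-labelled RNA of 1 sample. No genome coordinates are printed, because the file headers name an older array build and the gene table used for names is of another assembly. No probe or promoter sequence was used here.

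Chlorophyll is made in plastids from glutamate. Glutamyl-tRNA reductase, encoded by HEMA1, opens the route to 5-aminolevulinic acid, and further enzymes shared with heme synthesis lead to protoporphyrin IX. Mg-chelatase, built of the subunits GUN5 (also called CHLH), CHLD and CHLI and stimulated by GUN4, then inserts magnesium and commits the molecule to chlorophyll. Protochlorophyllide oxidoreductase (POR) carries out the step that needs light. In Arabidopsis PORA is known for its high transcript level in dark-grown seedlings and its loss in light, PORB for a steady level in dark and light, and PORC for its expression in light. CAO converts chlorophyllide a to chlorophyllide b, and GLK1 activates many genes of chlorophyll synthesis and light harvesting.

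Libraries were compared after each array was scaled: a scaled log2 signal is log2 of the processed intensity minus log2 of that array's own 75th percentile, so 0 is the 75th percentile and differences are in log2 units. On its main probe CKG itself had processed intensities of 1070 and 962 in the wild type and 6.46, 16.5 and 51.3 in the mutant. None of the latter was well above background, which makes this probe at least 29.6-fold lower in the mutant (limma adjusted p = 0.103). For its other probes the bounds were 29.7-fold and 18.7-fold. A bound of this kind sets the brighter group against the dimmest signal the arrays resolved. Slide 1 (scan 1) held the wild-type arrays and slide 2 (scan 2) the mutant ones, and the effects of slide and of genotype therefore cannot be told apart here. On ckg replicate 3 only 52.4% of spots were well above background, against 66.7% to 70.0% on the other arrays. Several results that turn on that array are given with and without it. Of 10 scanner quality metrics per array, 3 and 5 were out of range in Col-0, and 5, 3 and 6 in ckg. All 4 green tissue markers fixed for the check (RBCS1A, RBCS2B, LHCB3 and CA1) were well above background on every array. Their summed processed intensity, not scaled between arrays, was 945795 and 1143730 on the Col-0 arrays and 974619 to 1035640 on the ckg arrays. In scaled log2 signal 2 of the 4 were above Col-0 and 2 below, at differences of -0.31 (LHCB3) to 0.052. The other LHCB3 probes gave -0.90, -0.32 and -1.16, while the probes of each other green marker lay on both sides of Col-0. Of 5 shoot apex markers 0 were measured on all arrays, with STM, WUS, CLV3 and KNAT1 not well above background on any. Of 5 root markers 0 were measured on all arrays, with RHD6 and PLT1 not well above background on any. The summed processed intensity of the root markers, not scaled between arrays, was 176 and 204 in Col-0, against 253 to 270 in ckg. That of the apex markers was 19.7 and 58.3 in Col-0, against 21.8 to 214 in ckg. The 214 was the sum on ckg replicate 3, where dim probes read higher than on the other arrays, such as WUS at 56.8 against 5.45 to 7.22. The root sum of that array also holds such probes, with RHD6 at 33.2 against 6.12 to 11.3 and PLT1 at 33.1 against 2.73 to 5.23. The root marker CASP2 was at 126 there, against 125 and 138 in Col-0 and 185 and 190 on ckg replicates 1 and 2. The part of these markers in the results was not tested.

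The comparison of ckg with Col-0 asks how transcripts of chlorophyll synthesis stood when the growth regulator gene was mutated. By the main probes, PORC was the member with the largest difference, 1.82-fold higher in ckg, while its isoform PORB was 1.24-fold lower. PORA followed at 1.36-fold higher and GLK1 at 1.26-fold lower, and the smallest difference was that of GUN4, 1.03-fold lower. The second PORC probe was at a log2 difference of -0.15, with the groups overlapping. In all, 3 members lay above Col-0 (HEMA1, PORA and PORC) and 7 below, where 48.7% of all 18122 genes tested lay above and 51.3% below. The median log2 difference of the members was -0.12, that of all genes -0.0097. With limma's adjusted p below 0.05 as the call, 0 of 10 members were called, as were 0% of all genes tested. At an unadjusted p under 0.05 there were 2 members, PORC higher and PORB lower, and 18.1% of all genes passed that mark, 8.30% higher and 9.81% lower. The groups did not overlap for 4 of the 10 members (PORC higher, PORB, CHLD and GLK1 lower), which is near the share of all genes, 41.6%. These are bulk samples, in which fewer cells of a type and less RNA per cell cannot be told apart.

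**Figure D1:**
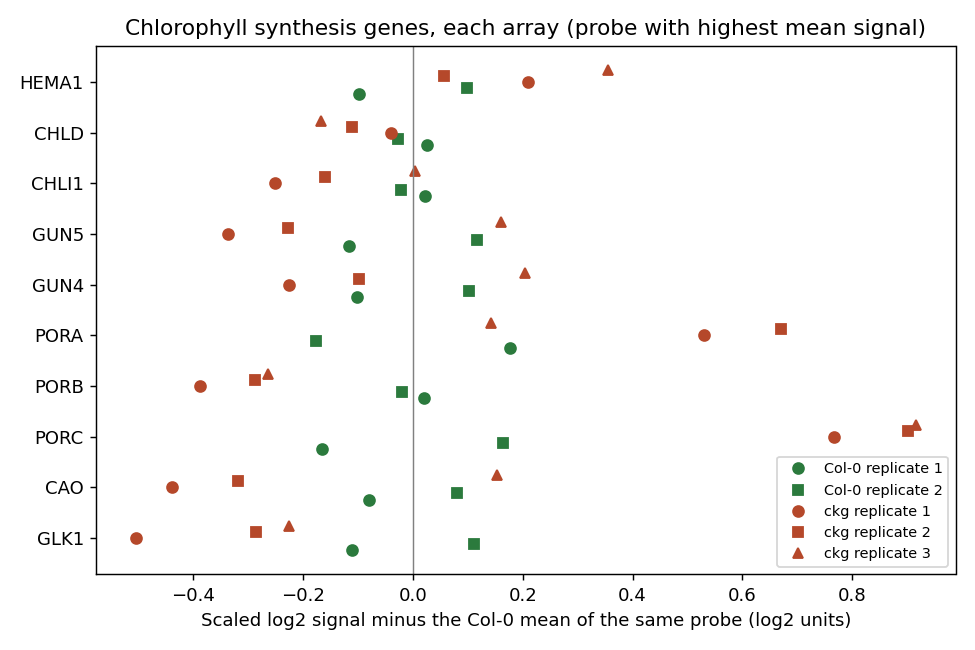
Each point is 1 array; the horizontal axis gives the scaled log2 signal of a gene's main probe minus its Col-0 mean, in log2 units, with green for Col-0 and brown for ckg. PORC lies to the right of both Col-0 arrays on all 3 ckg arrays, PORB, GLK1 and CHLD to the left, and for GUN5, GUN4 and CAO the triangle of ckg replicate 3 lies to the right of both Col-0 points.

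HEMA1, which encodes the enzyme of the first committed step, had scaled log2 signals of 3.73 and 3.93 in the wild type and 4.04, 3.88 and 4.18 in the mutant. The second ckg array lay between the Col-0 arrays, so the groups overlapped. The difference was 0.21 ± 0.14 (limma SE, n = 2 and 3; 95% interval -0.14 to 0.56; limma adjusted p = 0.466).

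On their main probes, the Mg-chelatase members GUN5, CHLI1, CHLD and GUN4 had log2 differences between -0.14 and -0.040. The second probes of CHLI1 and CHLD lay further below Col-0. GUN5, the porphyrin-binding H subunit, had scaled log2 signals of 5.51 and 5.74 in the wild type and 5.29, 5.40 and 5.79 in the mutant. Replicates 1 and 2 of ckg lay below both Col-0 arrays and replicate 3 above both, and the difference was -0.13 ± 0.19 (SE; 95% interval -0.61 to 0.34; limma adjusted p = 0.728). Without ckg replicate 3 it was -0.28. CHLI1, an ATPase subunit, gave 4.74 and 4.69 in the wild type and 4.46, 4.55 and 4.72 in the mutant on its main probe. Here replicate 3 lay between the Col-0 arrays, the difference was -0.14 ± 0.12 (SE; limma adjusted p = 0.577), and it was -0.21 without that array. A second CHLI1 probe had a difference of -0.34 ± 0.15 (SE; limma adjusted p over all probes 0.338), with all 3 ckg arrays below both Col-0 arrays.

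CHLD, the third kind of subunit, had scaled log2 signals of 3.38 and 3.33 in the wild type and 3.32, 3.24 and 3.19 in the mutant, a difference of -0.11 ± 0.10 (SE; limma adjusted p = 0.609). The groups were apart with ckg lower, though the difference was about the size of its SE. Its second probe gave 3.04 on both Col-0 arrays and 2.55, 2.80 and 2.63 in ckg, a difference of -0.38 ± 0.13 (SE; limma adjusted p over all probes 0.258). Both probes therefore had the ckg arrays on the low side. GUN4, the activator, gave 2.99 and 3.20 in the wild type and 2.87, 3.00 and 3.30 in the mutant. The groups overlapped at a difference of -0.040 ± 0.17 (SE; 95% interval -0.46 to 0.38; limma adjusted p = 0.915). Without ckg replicate 3 the difference of GUN4 was -0.16.

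Replicates 1 and 2 of ckg lay below both Col-0 arrays for 6 of the 10 members: GUN5, CHLI1, CHLD, PORB, CAO and GLK1. Replicate 3 was also below for 3 of these (CHLD, PORB and GLK1) and not for the other 3 (GUN5, CHLI1 and CAO). Over all 17898 genes with a value on every array, 5690 had both replicates below Col-0, and replicate 3 was not below in 28.9% of them. Without ckg replicate 3 the members at an unadjusted p under 0.05 numbered 5 in place of 2 (PORA and PORC higher, PORB, CAO and GLK1 lower), while 23.2% of all genes then passed that mark and limma's adjusted p called 0 members.

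The POR isoforms differed from each other in how they stood in ckg, and for PORA and PORC so did the probes of the same gene. PORB, the isoform of steady expression, had 5 probes. Its main probe gave scaled log2 signals of 5.01 and 4.97 in the wild type and 4.60, 4.71 and 4.73 in the mutant, a difference of -0.31 ± 0.10 (SE; 95% interval -0.57 to -0.054; limma adjusted p = 0.220). All 3 ckg arrays lay below both Col-0 arrays, and the gap was larger than the spread within either group (SD 0.028 in Col-0 and 0.066 in ckg). The probes numbered 2, 3 and 4 by brightness, all designed to another transcript accession of PORB, gave -0.33 ± 0.12, -0.36 ± 0.14 and -0.43 ± 0.19 (SE), each with the groups apart. The fifth probe gave 0.39 ± 0.55 (SE). On it the 2 Col-0 arrays stood far apart, at -1.20 and -3.08, and the 3 ckg arrays lay between them at -1.84, -1.54 and -1.86.

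PORC, the isoform of light-grown tissue, had 2 probes for the same accession, and they did not give the same picture. The main probe had processed intensities of 19710 and 21035 in the wild type and 36837, 42859 and 36823 in the mutant. As scaled log2 signals these were 2.97 and 3.30 in the wild type and 3.90, 4.04 and 4.05 in the mutant, so every ckg array lay above both Col-0 arrays by more than the spread within either group. The difference was 0.86 ± 0.14 (SE; 95% interval 0.51 to 1.22), 1.82-fold, with a limma adjusted p of 0.109 over all genes and 0.151 over all probes. The second probe had processed intensities of 18541 and 13941 in the wild type and 16675, 17773 and 11856 in the mutant. Its scaled log2 signals, 2.88 and 2.71 in the wild type and 2.76, 2.77 and 2.42 in the mutant, overlapped between the groups at a difference of -0.15 ± 0.16 (SE; 95% interval -0.56 to 0.26; limma adjusted p = 0.662).

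Within each array the main PORC probe minus the second was 0.088 and 0.59 in the wild type and 1.14, 1.27 and 1.64 in the mutant. A scaling by 1 constant per array cancels in this difference. Its groups did not overlap, and it was 1.01 larger in ckg. The pair is described because its 2 probes did not give the same picture, so no p-value is given for it. Probes of a gene usually lay closer: over 5532 genes with several tested probes the median spread of their log2 differences was 0.24, and 3.20% of genes had a spread at least as large as that of PORC. Which transcript of PORC each probe reads was not tested, and since the POR genes are close relatives, shared signal between their probes was not tested either.

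PORA, the isoform known from dark-grown seedlings, was measured on all arrays by 1 of its 3 probes. That probe had processed intensities of 761 and 506 in the wild type and 953, 1114 and 656 in the mutant. Its scaled log2 signals were -1.72 and -2.08 in the wild type and -1.37, -1.23 and -1.76 in the mutant, with replicate 3 of ckg between the Col-0 arrays. The difference was 0.45 ± 0.21 (SE; 95% interval -0.076 to 0.97; limma adjusted p = 0.325), and it was 0.60 ± 0.16 (SE; limma adjusted p = 0.149) without ckg replicate 3 and 0.27 without Col-0 replicate 2. The second probe had processed intensities of 41.1 and 35.5 in Col-0, both well above background, and of 5.19, 11.8 and 43.5 in ckg, none of them so, which makes it at least 1.14-fold lower in ckg. The bound runs against the sign of the brighter probe, and the intensity of 43.5 on ckg replicate 3 exceeded both Col-0 values. The third probe was not well above background on any array, and it read 32.8 on ckg replicate 3 against 3.74 to 4.36 on the others. Dim probes thus read higher on that array, and the 43.5 was not well above its background.

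**Figure D2:**
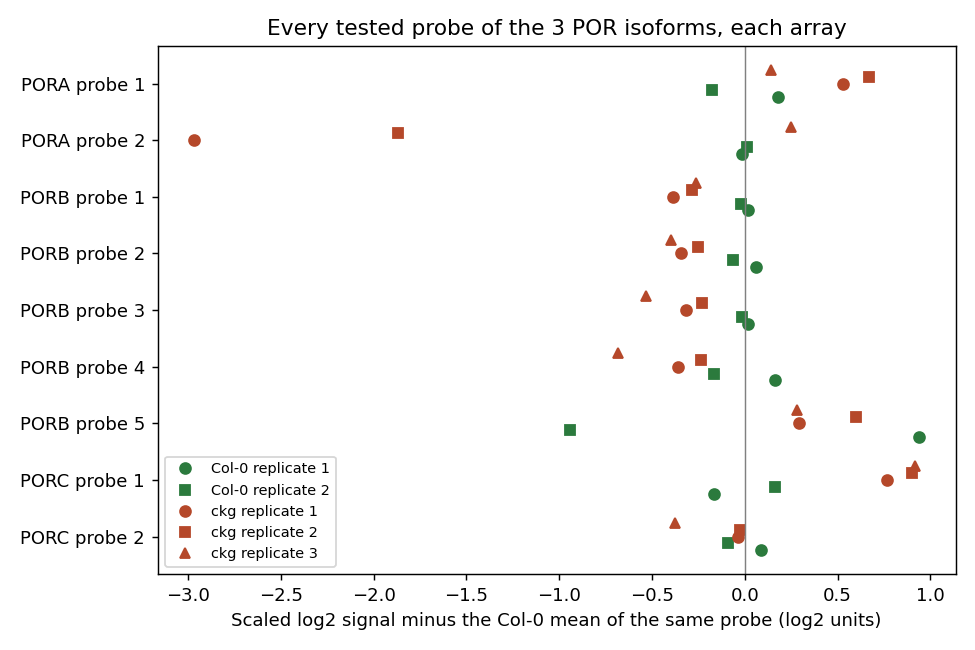
The 9 tested probes of the POR isoforms, numbered within each gene by mean brightness; the horizontal axis gives each array's scaled log2 signal minus the probe's Col-0 mean, in log2 units. PORB probes 1 to 4 have all ckg points left of both Col-0 points, PORC probe 1 has them to the right, and PORC probe 2 and PORB probe 5 overlap; on PORA probe 2 no ckg array was well above background.

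Of the 19 member probes 18 were tested, 4 with a log2 difference above 0 and 14 below, at a median of -0.17 (all 28789 tested probes: -0.027). At an unadjusted p under 0.05 there were 5, 1 higher (PORC probe 1) and 4 lower (PORB probes 1 to 3 and CHLD probe 2), beside 16.1% of all probes (7.46% higher and 8.62% lower). Groups were apart for 9 of the 18, 1 higher and 8 lower, beside 40.6% of all probes (17.8% higher and 22.8% lower). By limma's adjusted p, 0 of the 18 were called (0% of all probes).

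The isoforms were then compared within each array, where a scaling by 1 constant per array cancels, as the log2 signal of the main probe of an isoform minus that of another. Only the change of this difference between genotypes is read, because levels of different probes are not comparable. PORC minus PORB was -2.04 and -1.67 in the wild type and -0.70, -0.67 and -0.68 in the mutant. The ckg arrays lay close together (SD 0.017, against 0.26 in Col-0) and above both Col-0 arrays, and the mean was 1.17 higher in ckg, which is a 2.26-fold shift of the PORC to PORB ratio. The exact two-sided permutation p was 0.1, the smallest these groups allow, and 0.3 after adjustment over the 3 isoform pairs. Of the 10 pairings of a PORC with a PORB probe 9 gave a change above 0, over a range of -0.54 to 1.29. These pairings share probes and are not independent, and the 2.26-fold shift is that of the main probes. The second PORC probe was itself at -0.15, so its pairings lay above 0 only where the PORB probe was lower still. With the mean of all probes of each gene the change was 0.56.

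PORA minus PORB was -6.74 and -7.05 in the wild type and -5.97, -5.93 and -6.49 in the mutant, a change of 0.76 (exact permutation p = 0.2, adjusted 0.3). The groups did not overlap. The other PORA probes were not well above background on any ckg array, so pairings with them are not read. PORC minus PORA was 4.69 and 5.38 in the wild type and 5.27, 5.27 and 5.81 in the mutant. These overlapped, at a change of 0.41 (exact permutation p = 0.6, adjusted 0.6), which was 0.072 without Col-0 replicate 1, 0.76 without Col-0 replicate 2 and 0.23 without ckg replicate 3.

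**Figure D3:**
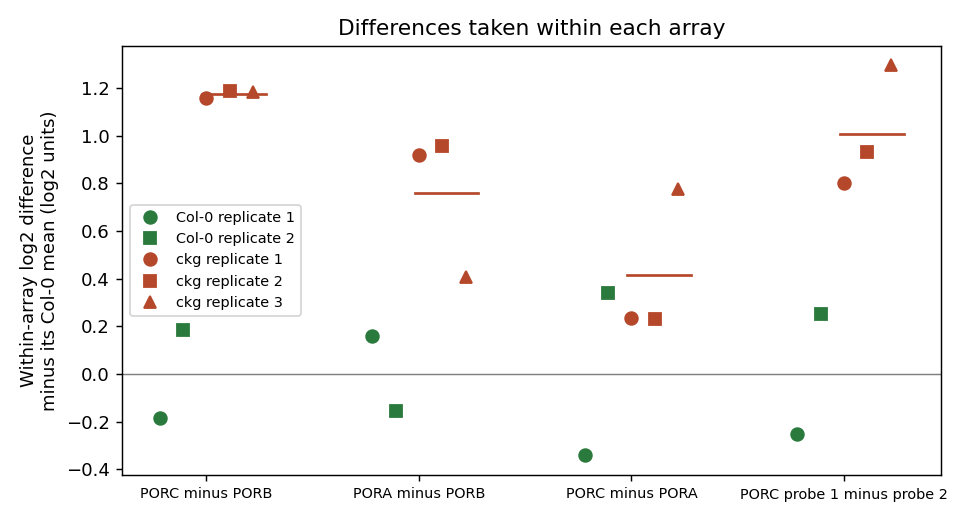
Differences of log2 signal taken within each array, minus their Col-0 mean (vertical axis, log2 units), for the 3 pairs of POR isoforms and for the 2 PORC probes; the short lines are ckg means. For PORC minus PORB the 3 ckg points lie together near 1.17, while for PORC minus PORA they overlap with Col-0.

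CAO, which makes chlorophyll b precursors, had scaled log2 signals of 3.01 and 3.17 in the wild type and 2.66, 2.78 and 3.25 in the mutant. Replicates 1 and 2 of ckg were low and replicate 3 was above both Col-0 arrays, so the difference of -0.20 ± 0.20 (SE; 95% interval -0.72 to 0.32; limma adjusted p = 0.626) was no larger than its error. Without replicate 3 it was -0.38 ± 0.11 (SE; limma adjusted p = 0.167). GLK1, the regulator, gave 1.99 and 2.21 in the wild type and 1.59, 1.81 and 1.87 in the mutant. All ckg arrays lay below both Col-0 arrays, with a difference of -0.34 ± 0.14 (SE; 95% interval -0.69 to 0.017; limma adjusted p = 0.290).

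The rest of the pathway was read from a list of 42 genes, of which 41 were tested; HO3, a heme oxygenase gene, was not measured well above background on any array. Of these, 28 lay below Col-0 and 13 above, with a median log2 difference of -0.18. At an unadjusted p under 0.05 there were 3 higher and 12 lower, where all genes gave 8.30% higher and 9.81% lower, and limma's adjusted p called 0 of 41. Groups were apart for 6 higher and 18 lower (19 lower with DVR, whose 2 measured ckg arrays lay below both Col-0 arrays and whose spot on ckg replicate 1 was left out), where all genes gave 19.2% higher and 22.3% lower. Among the 7805 genes brighter than the 75th percentile on average, 51.0% lay below Col-0 and 22.6% had the groups apart and lower.

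The early steps, from glutamyl-tRNA to protoporphyrin IX, which serve heme as well as chlorophyll, lay mostly on the low side. Of 14 such genes beside HEMA1, 12 were below Col-0 (51.3% of all genes), at a median of -0.33. Of the 14, 7 were lower at an unadjusted p under 0.05 (9.81% of all genes) and 10 had the groups apart and lower (22.3%). Only HEMA2 and HEMB2, minor isozymes named after their values were seen, lay above. GSA2, a glutamate-1-semialdehyde aminotransferase, had scaled log2 signals of 3.44 and 3.36 in the wild type and 2.87, 2.93 and 2.83 in the mutant, a difference of -0.52 ± 0.10 (SE; limma adjusted p = 0.131). Its isozyme GSA1 was at -0.32 ± 0.12 (SE), and this value turned to 0.38 with normexp background correction and with the authors' series table. HEMB1, the enzyme that joins 2 aminolevulinate molecules, was at -0.29 ± 0.11 (SE).

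HEMC, porphobilinogen deaminase, had scaled log2 signals of 2.63 and 2.65 in the wild type and 2.13, 2.24 and 1.99 in the mutant (-0.52 ± 0.12 SE; limma adjusted p = 0.151). HEMD, which closes the ring as uroporphyrinogen III synthase, gave 2.36 and 2.32 in the wild type and 1.71, 1.94 and 1.78 in the mutant (-0.53 ± 0.12 SE; limma adjusted p = 0.143). HEME1, a uroporphyrinogen decarboxylase, was at -0.34 ± 0.099 and PPOX1, a protoporphyrinogen oxidase, at -0.40 ± 0.11 (SE). In each of these 4 genes every ckg array lay below both Col-0 arrays. With the authors' series table or normexp, 9 of the 14 early genes were below Col-0 in place of 12, and without Col-0 replicate 1 or replicate 2, 3 in place of 7 were at an unadjusted p under 0.05 and lower. Without ckg replicate 3 the count below Col-0 was again 12, at a median of -0.28. Of the 14, 5 in place of 7 were then lower at an unadjusted p under 0.05, while 23.2% of all genes passed that mark in either direction.

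In the magnesium branch, 6 of 7 further genes were below Col-0 (51.3% of all genes), 3 of them at an unadjusted p under 0.05 (9.81% of all genes were lower at that mark). CHLI2, the lesser isoform of the I subunit, had scaled log2 signals of 3.19 and 3.10 in the wild type and 2.77, 2.72 and 2.64 in the mutant, a difference of -0.43 ± 0.10 (SE; limma adjusted p = 0.159). YCF54, an accessory protein of the cyclase that forms the fifth ring, gave 2.31 and 2.11 in the wild type and 1.72, 1.75 and 1.78 in the mutant (-0.46 ± 0.11 SE; limma adjusted p = 0.157). DVR, the divinyl reductase, was at -0.58 ± 0.14 (SE; limma adjusted p = 0.173) over 2 ckg arrays, because its spot on ckg replicate 1 was an outlier spot and was left out. With outlier spots kept its difference was -2.75.

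Of 7 tested genes of heme and the side branches, 6 were below Col-0 (51.3% of all genes). HO2, a heme oxygenase-like gene, was at -0.42 ± 0.15 and HO4, a heme oxygenase, at -0.51 ± 0.19 (SE), the latter well above background on 2 of 3 ckg arrays; limma's adjusted p was 0.240 and 0.256. The 4 genes of enzyme control (FLU, GBP, LIL3:1 and LIL3:2) had differences between -0.30 and 0.17, with 0 at an unadjusted p under 0.05.

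Genes of transcription and signalling lay mostly on the high side. Of 9 tested, 7 were above Col-0 (48.7% of all genes), at a median of 0.27. Of these, 3 were at an unadjusted p under 0.05, where 8.30% of all genes were higher at that mark. Without ckg replicate 3 the median of the 9 was 0.19, with 7 again above Col-0. CGA1, a GATA factor gene of greening known to be induced by cytokinin, had scaled log2 signals of -2.33 and -2.59 in the wild type and -1.46, -1.66 and -1.08 in the mutant. Every ckg array lay above both Col-0 arrays, a 2.09-fold difference of 1.06 ± 0.21 (log2, SE; limma adjusted p = 0.131). PIF3, a phytochrome-interacting factor that represses greening in the dark, gave -0.20 and -0.27 in the wild type and 0.73, 1.00 and 0.42 in the mutant (0.95 ± 0.19 SE; limma adjusted p = 0.132). HY5, a bZIP activator of light responses, gave -0.59 and -0.50 in the wild type and -0.063, 0.13 and 0.85 in the mutant (0.85 ± 0.29 SE; limma adjusted p = 0.229), with replicate 3 highest. The difference of HY5 was 0.58 without that array. GLK2, the paralog of GLK1, was named after its values were seen. It gave 2.60 and 2.66 in the wild type and 2.72, 2.92 and 3.30 in the mutant, with replicate 3 highest. Its difference was 0.35 ± 0.19 (SE, limma adjusted p = 0.391) with the groups apart and higher, while GLK1 was lower. The difference between the paralogs was not tested. The 15 pathway genes beyond the members that had an unadjusted p under 0.05 had 6 other tested probes, and these had the sign of the probe used. They read the same samples as the probes by which the genes were picked, so the shared sign is no independent support. The second HEMC probe, at -1.82, had ckg replicate 1 at -4.70 against -0.95 and -1.41 on the other ckg arrays. On the second PIF3 probe the groups overlapped. Of all genes with several tested probes, 35.8% had probes of opposite sign. That share covers genes with differences of any size, so it is no measure for genes picked by their p.

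**Figure D4:**
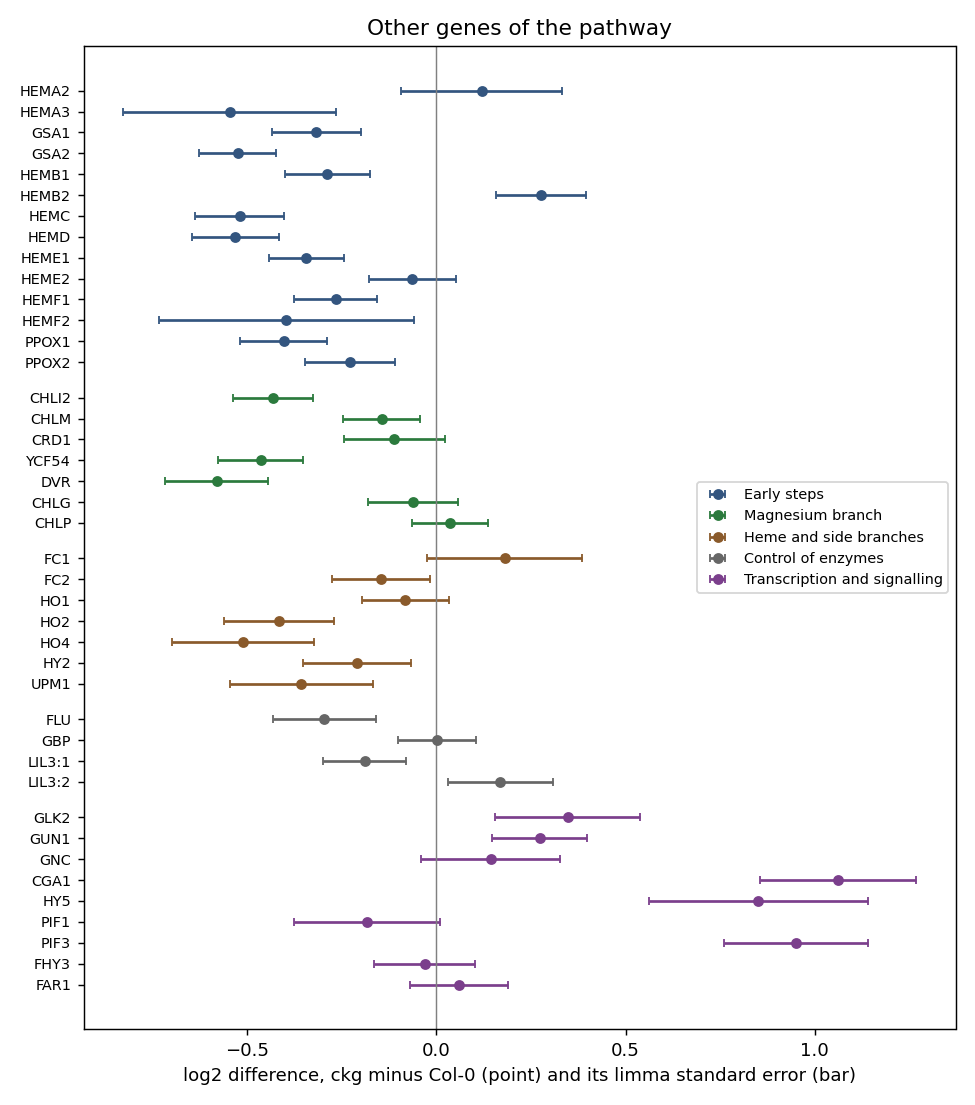
The 41 tested genes of the pathway beyond the 10 members, grouped by step; the horizontal axis gives the log2 difference of ckg minus Col-0 with its limma standard error as a bar. In the early steps 12 of 14 points lie left of 0 (51.3% of all genes), and CGA1, PIF3 and HY5 lie farthest to the right.

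The genes whose profile over the 5 arrays was most like that of each isoform, by Euclidean distance after centring each gene on its mean, were none of the pathway list. For PORC these were AT5G02230, LSH10 and KTI1 at distances of 0.10 to 0.12, with log2 differences of 0.76 to 0.92. For PORB they were emb1692, FRA3 and BETA-UP at 0.021 to 0.036, and for PORA AT4G08670, NAC103 and AT4G19760 at 0.059 to 0.13. With 5 arrays and 17898 genes such likeness is a description only.

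**Figure D5:**
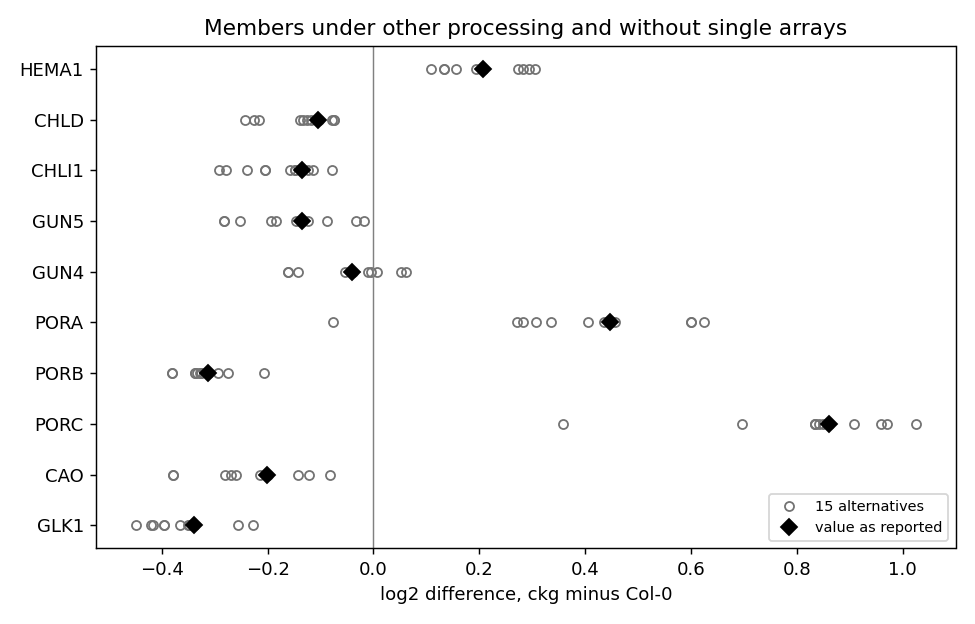
Log2 difference of ckg minus Col-0 (horizontal axis) for each member as reported (diamond) and under 15 alternatives of processing or with 1 array left out (circles). PORC, by its main probe or the mean of its probes, stays between 0.36 and 1.03, and PORB between -0.38 and -0.21. GUN4 crosses 0. The 1 circle of PORA below 0 is the mean of its probes, 2 of which were not well above background on any ckg array.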

How the data were processed

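Total RNA of 5 cotyledon samples was labelled with Cy3 and hybridised to 1-colour Agilent arrays, per the labels. Per the file headers, the authors deposited spot intensity values from Feature Extraction 10.7.1.1: a processed intensity (background-subtracted and detrended, not scaled between arrays), raw medians of spot and local background, and 0 or 1 flags per spot for signal well above background, outliers and saturation (0 saturated spots). The series table deposited beside them gives values that look like log2; its normalization and scale are unstated. It has a median of 8.41 on each array and keeps the ranks of the raw median intensity (Spearman 1). Groups and replicate numbers came from the labels.

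Outlier spots (35 to 197 non-control spots per array) were left out and spots of a probe averaged. Probe accessions, without versions, were matched to the TAIR10.1 gene table: 34358 of 43603 probes matched and 9245 did not. Array gene names are those of the design. A gene entered the fit where all arrays of at least 1 group had its brightest probe well above background (18122 genes). limma 3.58.1 (lmFit, eBayes, two-sided) in R 4.3.3 was fitted over all genes, and over 28789 probes, with Benjamini-Hochberg adjustment at 0.05 and 3 residual degrees of freedom before moderation. The number of arrays limits the precision. Scripts were tested on simulated data. A lower bound of a fold takes, for each dim array, the larger of the dim probe's value and the weakest value flagged well above background. The raw mean signal was not in the columns used, so normexp (offset 50) took the raw medians. Alternatives kept the probe per gene and the genes tested except where they changed them.

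The members, lists and tests were chosen with earlier results of these data known. Of the other pathway genes, those at an unadjusted p under 0.05 were named (15), in addition to members, the gene taken as mutated, markers, and the 3 nearest profiles of each POR isoform; other names are marked in the text.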

Additional observations from a re-analysis of the deposited data

How the results depend on the processing

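Members called by limma's adjusted p stayed at 0 under all 16 alternatives, as did the other pathway genes. Over all genes the count called, 0 as reported, was 1 after median scaling, 3 after normexp, 3 from the authors' series table, 4 under trend and robust variance and 130 at a threshold of 0.1. Leaving out 1 array gave 0 to 8 (8 without Col-0 replicate 1, 1 without Col-0 replicate 2, 3 without ckg replicate 3). Over all probes it became 14 with normexp, 2 with quantile scaling, 8 with the series table and 25 at a threshold of 0.1, and leaving out 1 array gave 0 to 18 (18 without Col-0 replicate 1, 2 without Col-0 replicate 2, 5 without ckg replicate 3). Unadjusted, 3283 genes had a limma p under 0.05. GSA1 turned to 0.38 with normexp and 0.38 with the series table. GUN4 was 0.0074 with the series table and between -0.16 and 0.062 with an array left out, and the cause was not tested for either. PORA was -0.076 with the mean of its probes, which takes in 2 probes not well above background on any ckg array. Its measured probe lay above 0 in 15 of 15 settings, the reported one included. PORC kept its sign under 15 alternatives, lowest at 0.36 with the mean of its probes. The other alternatives all used its main probe. The second PORC probe lay below 0 in 15 of 15 settings, the reported one included, between -0.33 and -0.032. PORC minus PORB lay between 0.99 and 1.36, and the difference between the PORC probes between 0.76 and 1.26, with an array left out. With the replicate number as a block, which leaves ckg replicate 3 without a Col-0 partner, 0 genes were called, PORC was at 0.83 and PORC minus PORB at 1.17; same-numbered samples share only a number (deviation correlations -0.090 and -0.10), and the block changed no call. Between the settings the median of all tested genes moved by over 0.1 only without the filter on dim probes, to 0.12. Where 1 Col-0 array was left out, the lone array was assumed to vary like the ckg group. Weak signals, such as PORA probes 2 and 3, limit what these arrays show.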
